A study of Mus musculus with 8 samples.

Results

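The genes described here are 10 heat shock proteins and co-chaperones, Hspa1a, Hspa1b, Hspa8, Hsph1, Dnajb1, Hspb1, Hspe1, Hspd1, Hsp90aa1 and Hspa4l, measured in mouse lung. They were picked by name, with their levels in these lungs already known, and their probes were found through the RefSeq accession that the scanner output gives for each spot. In the order given these are NM_010479, NM_010478, NM_031165, NM_013559, NM_018808, NM_013560, NM_008303, NM_010477, NM_010480 and NM_011020. The 10 genes have 21 probes among 56605 on the array, and all 21 passed the filter on dim probes that 37116 probes passed. Because the genes were chosen with their levels in view, the levels and differences of these 10 are given as a description, and the counts of those that pass the limits of a fit are listed without being read as support.

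BALB/c mice, all female, bought at 4 weeks of age and housed for 2 weeks before the feeding began, received 1 of 3 feeds freely for 70 days. NT mice ate the standard feed and never met the allergen. Ctrl-F mice ate the standard feed, Cap-F mice a feed with carbonate apatite particles that carried no oligodeoxynucleotide, and ODNcap-F mice a feed with particles that carried a CpG-oligodeoxynucleotide, a short DNA that activates Toll-like receptor 9. These last 3 groups were all sensitized to ovalbumin (OVA) with aluminum gel by 3 intraperitoneal injections and inhaled OVA daily from Day 63 to Day 69, and the lungs were taken 24 h later. The questions were how allergic inflammation changes the lung transcripts and whether feeding ODNcap alters that response. RNA of whole lung from 8 mice, 2 in each of the 4 groups, was labeled with Cy3 and hybridized to 8 arrays of 1 slide.

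Heat shock proteins are chaperones that bind unfolded proteins and keep them from aggregating until they can fold. HSP70 proteins do so in cycles of ATP hydrolysis that J-domain proteins start and nucleotide exchange factors end, small heat shock proteins hold unfolded proteins without ATP, HSP90 matures kinases and steroid receptors, and the HSP60 and HSP10 pair folds proteins in a chamber inside mitochondria. Under heat, oxidants or other protein damage, heat shock factor 1 (Hsf1) binds inverted repeats of the unit GAA in front of many of these genes and raises their transcription.

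The sequence in front of these genes is shown first, since heat shock factors act there. RefSeq start sites on the GRCm38.p6 build gave 11 windows of 250 bases for 8 of the 10 genes, and Hspa8 and Hsp90aa1 had no entry. A pair of inverted units, GAANNTTC or TTCNNGAA, each of which reads the same on both strands, was present in 7 of the 11 windows (63.6%), belonging to 6 genes. Over 32851 windows of all genes, 12.8% held such a pair. Some of the windows with a pair overlap or are near copies of each other, as given below, so they are not separate counts. The HSP70 genes Hspa1a (chr17:34969359-34972156) and Hspa1b (chr17:34956429-34959238) lie near each other on the minus strand and hold the pair at the same place. The small heat shock protein gene Hspb1 holds 2 pairs. These 3 windows are printed 5′ to 3′ on the coding strand, with the pairs in capitals, since the largest differences among the 10 genes fell on them.
Hspa1a, chr17:34972157-34972406, minus strand: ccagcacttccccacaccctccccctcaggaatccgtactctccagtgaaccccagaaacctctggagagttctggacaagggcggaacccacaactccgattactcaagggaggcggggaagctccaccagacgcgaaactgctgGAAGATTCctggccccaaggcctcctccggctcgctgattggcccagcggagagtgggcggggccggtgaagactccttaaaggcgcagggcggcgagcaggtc
Hspa1b, chr17:34959239-34959488, minus strand: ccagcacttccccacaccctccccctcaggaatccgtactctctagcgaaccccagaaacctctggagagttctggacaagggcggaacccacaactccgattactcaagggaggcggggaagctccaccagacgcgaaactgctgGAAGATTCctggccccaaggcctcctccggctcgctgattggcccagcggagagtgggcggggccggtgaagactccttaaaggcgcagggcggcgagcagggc
Hspb1, chr5:135887669-135887918, plus strand: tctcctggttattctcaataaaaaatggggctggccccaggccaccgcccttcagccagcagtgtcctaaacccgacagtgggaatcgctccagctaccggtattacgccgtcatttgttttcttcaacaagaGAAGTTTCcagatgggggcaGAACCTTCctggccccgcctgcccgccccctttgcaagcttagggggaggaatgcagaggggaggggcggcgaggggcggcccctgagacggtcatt

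The Hspa1a and Hspa1b windows were identical at 247 of 250 positions, and in both the pair began at position -104, counted from the annotated start. The Hspb1 pairs began at -117 and -97. A run of 3 or more alternating units stood in front of Hspe1, the mitochondrial HSP10, where 3 overlapping pairs began at -89, -84 and -79. Hspe1 and Hspd1, the mitochondrial HSP60, share a promoter region and point away from each other, so the run in the window of the Hspd1 start 2 is the same stretch read from the other strand. The co-chaperone Hsph1, also known as HSP110, had a single pair, at -33 from its start 1. The same pair stands at -54 from its start 2 and was counted in both windows. Both stretches are shown with the units in capitals, to set the longest run of units against a single pair.
Hspe1, chr1:55088053-55088082, plus strand: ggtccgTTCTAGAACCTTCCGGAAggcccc
Hsph1, chr5:149636351-149636380, minus strand: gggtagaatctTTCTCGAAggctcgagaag

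Runs of 3 units were found in 2 windows of the 10 genes, both on that shared stretch, and in 0.466% of all windows. No pair was found in the windows of Dnajb1, of Hspa4l and of the Hspd1 start 1. Among 107 windows of other chaperone genes, 15 (14.0%) held a pair, and only those of Dnajb6, a J-domain protein, held a run of 3. A match of these letters is a description of the window and not a shown binding site.

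**Figure D1:**
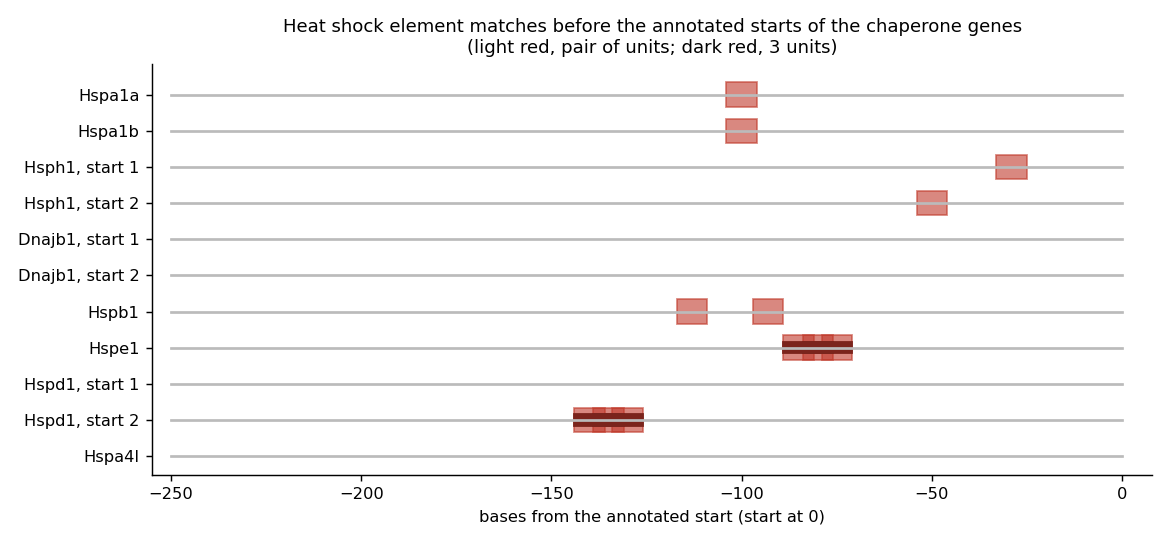
Positions of GAA unit matches in the 250 bases before each annotated start (x axis, bases from the start; 1 line per start). Light red boxes are pairs of inverted units and dark red bars are runs of 3 units; Hspa1a and Hspa1b share the position -104, and the windows of Dnajb1, Hspa4l and the Hspd1 start 1 hold no match.

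The 8 arrays gave like signal, with 61.3% to 65.0% of the probes well above background, a median intensity between 63.2 and 75.4 and no saturated spot. All levels below are log2 of the background-subtracted intensity after quantile normalization, 1 unit being a doubling, and the brightest probe stands for a gene. The brightest probe of each of the 10 genes was well above background on all 8 arrays. Levels of different probes depend on the probe and were not set against each other. The first row of the slide carried NT and Ctrl-F and the second carried Cap-F and ODNcap-F, so the row and the group cannot be told apart in any comparison across them, whereas Ctrl-F against NT and ODNcap-F against Cap-F each stay within 1 row. With 2 mice per group, an exact permutation test of a single gene cannot give a two-sided p below 0.333. In whole lung, fewer cells of a type and less RNA per cell cannot be told apart. The lung epithelial markers Sftpc, Sftpb, Scgb1a1, Ager and Foxj1 were well above background on all 8 arrays.

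The stress-inducible HSP70 genes were lowest in Cap-F and differed most between mice of the same group. Hspa1a read 11.97 and 11.70 for NT, 11.77 and 12.00 for Ctrl-F, 10.19 and 10.31 for Cap-F, and 10.32 and 12.28 for ODNcap-F. Both Cap-F mice and ODNcap-F mouse 1 lay below all other mice, and ODNcap-F mouse 2 had the highest value of the 8. The near-identical Hspa1b read 10.98 and 10.81 for NT, 11.16 and 11.31 for Ctrl-F, 9.38 and 9.41 for Cap-F, and 9.47 and 11.52 for ODNcap-F. The same 3 mice were low and the same ODNcap-F mouse was highest. The 2 genes encode almost the same protein, and whether each probe separates their transcripts was not tested.

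The J-domain protein Dnajb1, the HSP40 that hands clients to inducible HSP70, had the same division of mice. Its level (chr8:83608175-83612653) was 13.86 and 14.14 for NT, 13.79 and 14.00 for Ctrl-F, 12.92 and 13.07 for Cap-F, and 13.04 and 13.98 for ODNcap-F. Again both Cap-F mice and ODNcap-F mouse 1 lay lowest, while ODNcap-F mouse 2 lay within the range of NT and Ctrl-F. Of 16565 named genes, 532 (3.21%) had these 3 mice lowest, as had 4 of 105 other chaperone genes. The step up to the other 5 mice was 1.37 for Hspa1a, 1.35 for Hspa1b and 0.72 for Dnajb1. It was 1.24 for H2-Q1 and 1.06 for Eddm3b, which are not chaperones. The division was described after the values were seen, and nothing is read from it. Group means of Hspa1a were 11.83 ± 0.19 (SD, n = 2) for NT, 11.88 ± 0.16 for Ctrl-F, 10.25 ± 0.09 for Cap-F and 11.30 ± 1.38 for ODNcap-F. Those of Hspa1b were 10.90 ± 0.12, 11.24 ± 0.10, 9.39 ± 0.02 and 10.49 ± 1.45, and those of Dnajb1 14.00 ± 0.20, 13.90 ± 0.14, 13.00 ± 0.11 and 13.51 ± 0.67, in the same order of groups. In rising order, Hspa1a and Hspa1b ran Cap-F, ODNcap-F, NT and Ctrl-F, and Dnajb1 ran Cap-F, ODNcap-F, Ctrl-F and NT. The values of neighbors in these orders overlapped, except that all Cap-F values lay below ODNcap-F for Hspa1a and Hspa1b and that Hspa1b in NT lay below Ctrl-F.

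Against NT, the Cap-F mean was lower by 3.0-fold for Hspa1a (log2 difference -1.58, SE 0.58), 2.84-fold for Hspa1b (-1.51, SE 0.60) and 2.0-fold for Dnajb1 (-1.0, SE 0.30). Against Ctrl-F, it was lower by 3.10-fold for Hspa1a, 3.59-fold for Hspa1b and 1.86-fold for Dnajb1. These 2 comparisons cross the rows of the slide. The Ctrl-F mean, by contrast, differed from NT by 0.05 for Hspa1a, 0.34 for Hspa1b and -0.10 for Dnajb1 on the log2 scale. The Dnajb1 difference turned to 0.14 with scaling to the 75th percentile. Each difference was less than its SE, but every SE given here is pooled over the 4 groups. The ODNcap-F pair had the largest SD in these 3 genes (1.38, 1.45 and 0.67). The SE is thus not the spread of the groups compared, and for Hspa1b both Ctrl-F mice lay above both NT mice. Within the second row of the slide, the ODNcap-F mean lay above Cap-F by 1.05 (SE 0.58) for Hspa1a, 1.1 (SE 0.60) for Hspa1b and 0.51 (SE 0.30) for Dnajb1. ODNcap-F mouse 2 carried that excess, since mouse 1 stood beside the Cap-F mice in all 3 genes (10.32, 9.47 and 13.04).

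**Figure D2:**
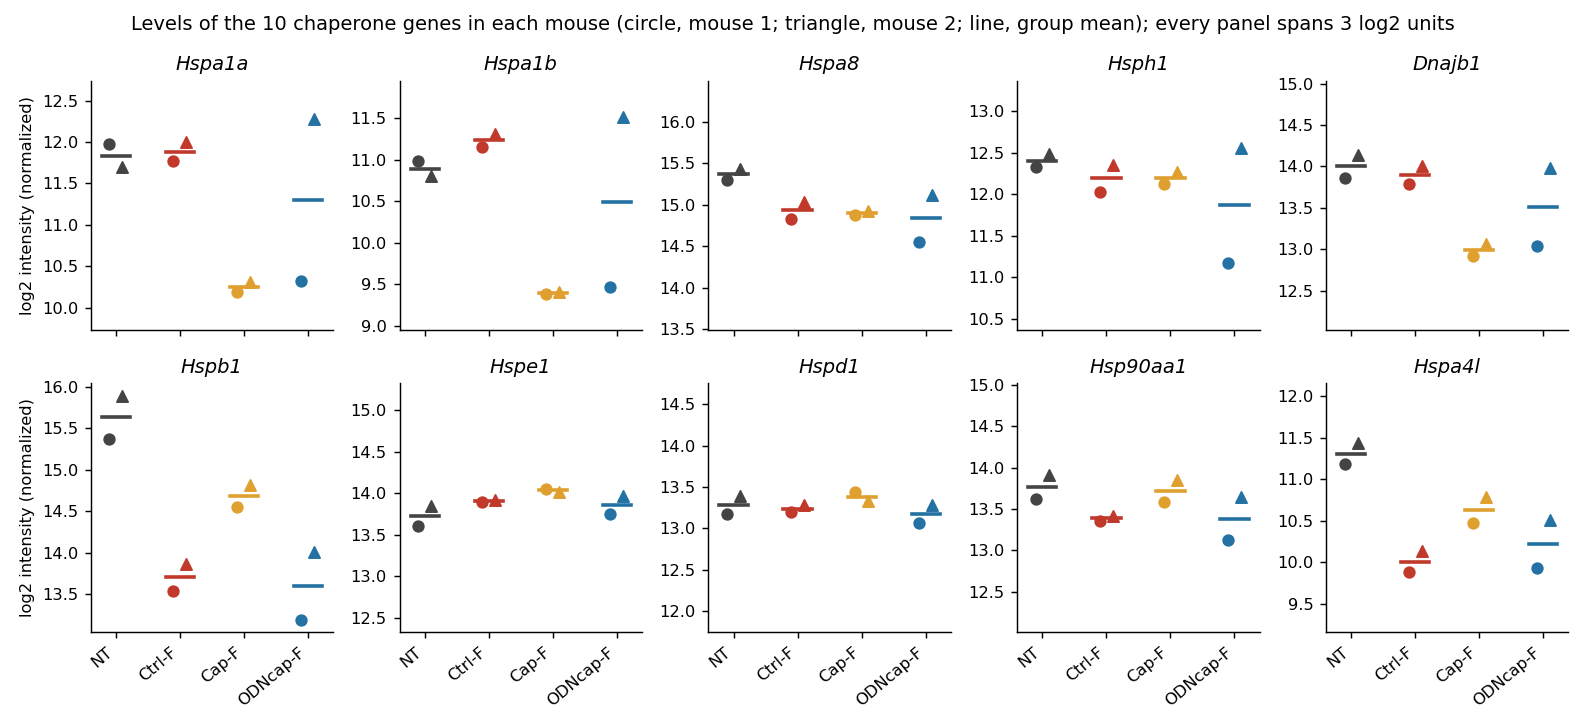
Level of each gene in each mouse (y axis, log2 normalized intensity, 3 units high in every panel; x axis, the 4 groups). Circles are mouse 1, triangles mouse 2 and lines group means; for Hspa1a, Hspa1b and Dnajb1 both Cap-F mice and ODNcap-F mouse 1 lie lowest, and Hspb1 and Hspa4l are highest in NT.

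The small heat shock protein Hspb1, known as HSP25 in mice and abundant in muscle, endothelium and epithelium, was instead highest in NT. Its level (chr5:135887919-135889563) was 15.37 and 15.89 for NT, 13.54 and 13.86 for Ctrl-F, 14.55 and 14.81 for Cap-F, and 13.19 and 14.01 for ODNcap-F. Every OVA-challenged mouse was below both NT mice, and the Cap-F mice lay between NT and the other challenged mice with no overlap. Against NT, Hspb1 was 3.82-fold lower in Ctrl-F (-1.93, SE 0.31), 1.93-fold lower in Cap-F (-0.95) and 4.08-fold lower in ODNcap-F (-2.03). The Cap-F mean was 0.98 above Ctrl-F, and ODNcap-F differed from Cap-F by -1.08 within a row of the slide. Ctrl-F and ODNcap-F overlapped, with a difference of means of -0.10.

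Hspa4l, an HSP110-type exchange factor of HSP70 known for its role in testis and kidney, was likewise highest in NT, with Cap-F next. It read 11.18 and 11.43 for NT, 9.88 and 10.13 for Ctrl-F, 10.47 and 10.79 for Cap-F, and 9.93 and 10.51 for ODNcap-F on its brightest probe (gene at chr3:40744500-40796103). Both NT mice were above the 6 others, and Cap-F was above Ctrl-F without overlap, while ODNcap-F overlapped both. The means were 2.46-fold lower in Ctrl-F, 1.60-fold lower in Cap-F and 2.12-fold lower in ODNcap-F than in NT. The 2 dimmer probes gave smaller differences in the same direction, -0.84 and -0.75 in Ctrl-F, -0.29 and -0.35 in Cap-F, and -0.66 and -0.69 in ODNcap-F. On the log2 scale, the brightest probe had given -1.30, -0.67 and -1.08.

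Endothelial and cardiomyocyte markers, with those of other cells, were set beside these 2 genes. Of the endothelial markers Pecam1, Cdh5 and Cldn5, 2 of 3 were called lower than NT in each challenged group, and log2 of their summed intensity was 15.73 to 15.77 in NT and 14.37 to 14.69 over the challenged mice. Of 6 cardiomyocyte markers, 4 were called lower in Ctrl-F against NT and 0 in the other challenged groups, all 6 being well above background on every array. Their summed level was 13.50 to 14.56 for NT, 11.32 to 11.96 for Ctrl-F, 11.57 to 13.62 for Cap-F and 13.14 to 13.79 for ODNcap-F. Of these 6 markers, 0 were called in ODNcap-F against Ctrl-F. Of 4 smooth muscle markers 0 were called against NT, with medians of -0.08, 0.30 and 0.15 for Ctrl-F, Cap-F and ODNcap-F. Of 5 epithelial markers 0 were called, with medians of -0.50, -0.43 and -0.04. Eosinophil markers were called higher in 3, 4 and 3 of 4, and T cell markers in 0, 1 and 0 of 4. In each group 3 of 4 macrophage markers were called higher and 1 lower, and 4 of 4 B and plasma cell markers higher. Red blood cell markers were called lower in 2 of 3. The part of any of these cells in the levels of Hspb1 and Hspa4l was not tested.

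Hspa8, the constitutive HSP70 (chr9:40801276-40805202), was lower in all challenged mice by a smaller amount. It read 15.30 and 15.43 for NT, 14.83 and 15.03 for Ctrl-F, 14.88 and 14.92 for Cap-F, and 14.55 and 15.12 for ODNcap-F. Both NT mice were above all 6 challenged mice, and the 3 challenged groups overlapped with each other. The means differed from NT by -0.44, -0.47 and -0.53 (SE 0.19), and the 3 dimmer probes gave -0.76 to -0.43 in the same comparisons.

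Hsp90aa1, the inducible cytosolic HSP90 (chr12:110691036-110696395), read 13.62 and 13.91 for NT, 13.36 and 13.42 for Ctrl-F, 13.58 and 13.85 for Cap-F, and 13.12 and 13.64 for ODNcap-F. Ctrl-F lay below NT and below Cap-F without overlap, and ODNcap-F overlapped NT. The means differed from NT by -0.38 for Ctrl-F, -0.05 for Cap-F and -0.39 for ODNcap-F (SE 0.20), and the Cap-F difference turned to 0.05 with scaling to the 75th percentile. The dimmer probe gave -0.39, 0.02 and -0.39.

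Hsph1 (chr5:149616843-149636498), which exchanges nucleotides on HSP70 and helps it to undo aggregates, read 12.33 and 12.48 for NT, 12.03 and 12.35 for Ctrl-F, 12.12 and 12.27 for Cap-F, and 11.17 and 12.56 for ODNcap-F. ODNcap-F mouse 1 was the lowest and ODNcap-F mouse 2 the highest of all 8 mice, so that the ODNcap-F group spanned every other group. The other 6 mice lay between 12.03 and 12.48. The brightest probe put the means of Ctrl-F, Cap-F and ODNcap-F at -0.22, -0.21 and -0.54 from NT (SE 0.42). The middle probe gave -0.02, -0.04 and -0.34, and the dimmest probe, well above background on 7 arrays, gave -0.03, -0.08 and -0.06.

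For the mitochondrial pair, no difference from NT on the brightest probes was over 0.31. Hspe1 (chr1:55088148-55091317) read 13.60 and 13.85 for NT, 13.89 and 13.92 for Ctrl-F, 14.05 and 14.02 for Cap-F, and 13.75 and 13.97 for ODNcap-F. It was the 1 gene of the 10 whose mean was higher than NT in all 3 challenged groups, by 0.18, 0.31 and 0.14 (SE 0.11), with overlap in ODNcap-F. Its dimmer probes gave larger differences, 0.44 and 0.63 in Ctrl-F, 0.58 and 0.68 in Cap-F, and 0.33 and 0.54 in ODNcap-F.

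Hspd1 (chr1:55077833-55088243) read 13.18 and 13.39 for NT, 13.20 and 13.28 for Ctrl-F, 13.44 and 13.33 for Cap-F, and 13.06 and 13.28 for ODNcap-F. On this probe no challenged group was apart from NT, and the means differed from NT by -0.04, 0.11 and -0.11 (SE 0.11). Its sign was not settled: the dimmer probe gave 0.22, 0.26 and 0.11, with all 3 challenged groups above NT without overlap, and scaling to the 75th percentile gave 0.13 in Ctrl-F and 0.03 in ODNcap-F. The RefSeq table names 5 pseudogenes of Hspd1 and 7 of Hspe1, and whether their transcripts reach these probes was not tested.

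**Figure D3:**
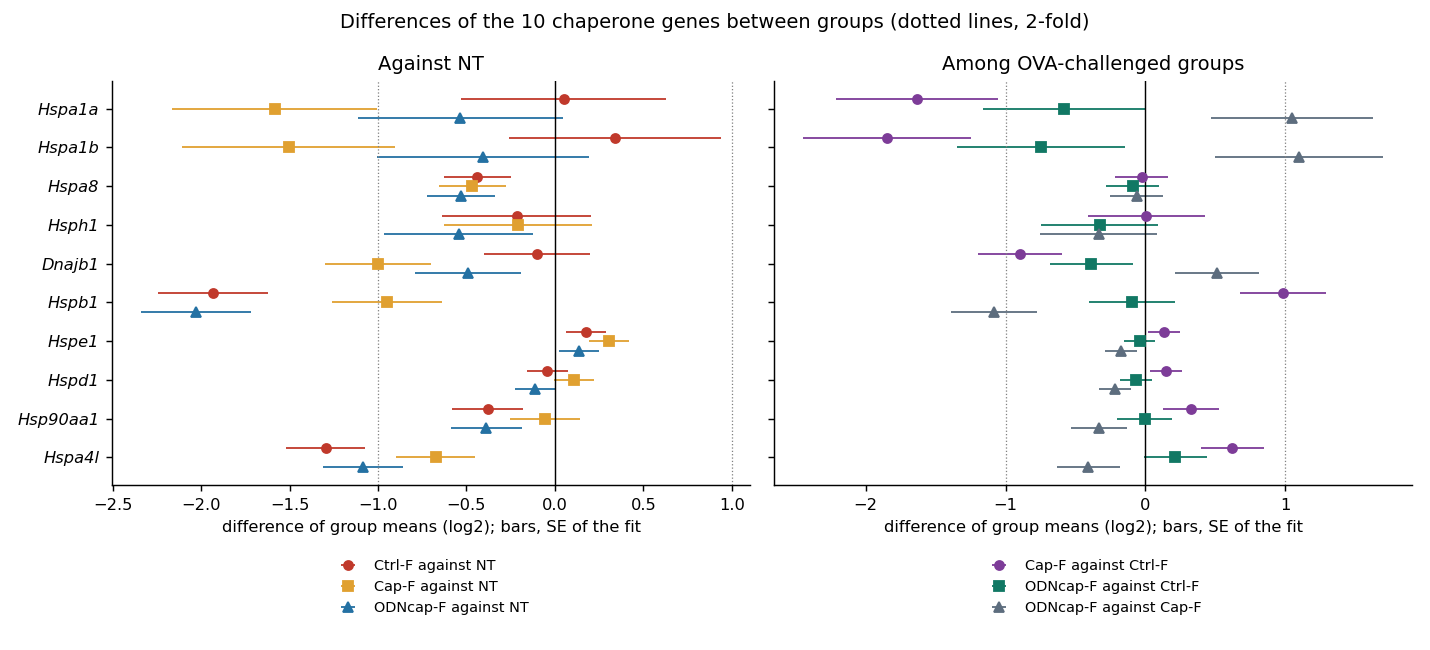
Differences of group means for each gene (x axis, log2; bars, SE of the limma fit; dotted lines, 2-fold), against NT on the left and among the OVA-challenged groups on the right. Hspb1 and Hspa4l are lowest against NT in Ctrl-F and ODNcap-F, Hspa1a, Hspa1b and Dnajb1 in Cap-F, and the SE of Hspa1a and Hspa1b is the widest of the 10.

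Counted over the 10 genes, the median log2 difference from NT was -0.16 for Ctrl-F, -0.57 for Cap-F and -0.51 for ODNcap-F, beside -0.10, -0.10 and -0.11 over all probes kept. The mean was lower than NT in 7, 8 and 9 of the 10 genes. The Ctrl-F direction rests on the normalization, since the median became 0.02 with scaling to the 75th percentile, where Dnajb1 and Hspd1 turned to higher. At an adjusted p under 0.05 and a fold over 2 in limma, 24.4% of all genes were called in Ctrl-F against NT (11.4% higher, 13.1% lower), 21% in Cap-F (10.4% and 10.6%) and 22.2% in ODNcap-F (10.6% and 11.7%). These shares count a gene, or an accession without a name, as called when any of its probes passed. By the brightest probe alone, as for the 10 genes, 23.3%, 20.9% and 21% of the named genes were called. Of the 10 genes, Hspb1 and Hspa4l passed these limits in Ctrl-F and in ODNcap-F, and Dnajb1 in Cap-F, all lower. The 2 Ctrl-F mice lay apart from both NT mice in 6 of the 10 genes, 2 higher and 4 lower, the Cap-F mice in 8, 1 higher and 7 lower, and the ODNcap-F mice in 3, all lower. Of all named genes, the Ctrl-F mice were apart and higher in 37.5% and lower in 48.9%, the Cap-F mice in 36.2% and 48.6%, and the ODNcap-F mice in 36.3% and 47.6%. Nothing is read from these counts, because the genes were chosen with their levels known, and all 3 comparisons share the NT mice.

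Hspb1 passed in ODNcap-F against NT under every setting and without any single mouse, whereas the calls of Dnajb1 in Cap-F and of Hspa4l in ODNcap-F turned on single mice and settings. Without ODNcap-F mouse 1, and also without ODNcap-F mouse 2, Hspa1a, Hspa1b and Dnajb1 all passed in Cap-F against NT, as they did with the local-pooled-error test, which takes each variance from probes of like intensity. No gene of the 10 passed there with scaling to the 75th percentile, without the filter on dim probes, or without NT mouse 2, Cap-F mouse 1 or Cap-F mouse 2. Without NT mouse 1, only Hspb1 did. The deposited table called Hspa1a there, and normexp background correction Hspa1a and Hspa1b. In ODNcap-F against NT, 5 genes passed without ODNcap-F mouse 2, namely Hspa1a, Hspa1b, Hsph1, Hspb1 and Hspa4l, and 1, Hspb1, passed without ODNcap-F mouse 1, without NT mouse 2, with normexp or with the mean of a gene's probes. In Ctrl-F against NT, Hspb1 and Hspa4l passed without any single mouse, and only Hspb1 with the mean of a gene's probes.

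Among the challenged groups, 0 of the 10 genes passed. Of all genes, 0% passed between ODNcap-F and Ctrl-F, 0.00345% between ODNcap-F and Cap-F and 0.00345% between Cap-F and Ctrl-F. Values of ODNcap-F and Ctrl-F overlapped in all 10 genes, where 18.7% of the named genes were apart and higher and 16.9% apart and lower, and the median difference was -0.09. ODNcap-F lay above Cap-F without overlap in Hspa1a and Hspa1b, the nearest Hspa1a values being 10.32 and 10.31, and below it in Hspb1, Hspe1 and Hspd1. Of all named genes, 23.2% were apart and higher and 22% apart and lower there. Cap-F lay apart from Ctrl-F in 8 genes, 5 higher and 3 lower. Over all named genes, 25% were apart and higher and 27.3% apart and lower in that comparison, which crosses the rows of the slide. The local-pooled-error test called Hspa1a, Hspa1b and Hspb1 in ODNcap-F against Cap-F and Hspa1a and Hspa1b in Cap-F against Ctrl-F, and without ODNcap-F mouse 1 limma called Hspa1b in ODNcap-F against Cap-F.

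The widest spread within a group was in ODNcap-F. Mouse 2 was above mouse 1 in all 10 genes, by 2.05 (4.14-fold) for Hspa1b, 1.95 (3.87-fold) for Hspa1a, 1.38 (2.61-fold) for Hsph1 and 0.94 (1.92-fold) for Dnajb1. The differences were 0.81 for Hspb1, 0.57 for Hspa8 and for Hspa4l, 0.52 for Hsp90aa1, and 0.22 for Hspd1 and for Hspe1. The mitochondrial pair was thus the least apart. The median over the 10 was 0.69, whereas over 16565 named genes it was -0.01, with 48.4% higher in mouse 2.

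Of the named genes, 10 differed in that direction by as much as Hspa1b, 12 by as much as Hspa1a, 42 by as much as Hsph1 and 146 by as much as Dnajb1, each count including the gene itself. More than 2-fold higher in mouse 2 were 3 of the 10 genes and 121 (0.730%) of the named genes. The 10 genes were chosen with these levels known, so nothing is read from these ranks and shares. In the other groups, mouse 2 was above mouse 1 in 8 of the 10 genes in NT, 10 in Ctrl-F and 8 in Cap-F, by medians of 0.23, 0.20 and 0.14, and no gene differed by more than 2-fold. The mouse numbers come from the sample titles, and the labels do not say whether they link mice across groups. Because the group mean of ODNcap-F lies between 2 distant mice for Hspa1a, Hspa1b and Hsph1, neither mouse was at that mean.

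**Figure D4:**
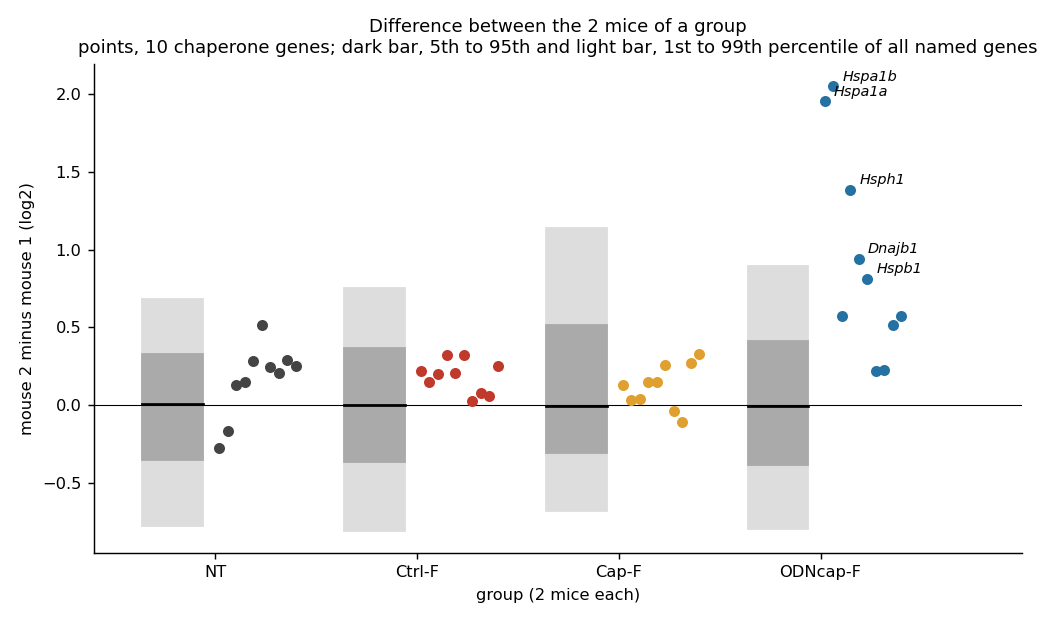
Log2 difference of mouse 2 from mouse 1 within each group (y axis) for the 10 genes (points), beside the 5th to 95th (dark) and 1st to 99th percentile (light) of all named genes, with the median as a black line. In ODNcap-F all 10 points lie above 0, with Hspa1b at 2.05 and Hspa1a at 1.95, and in the other groups no point passes 0.52.

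Markers of stress or of other cells were not uniformly apart in these 2 mice. The mean level of 12 immediate early genes, which respond fast to handling and injury, was 11.29 in ODNcap-F mouse 1 and 11.03 in mouse 2, opposite in order to the heat shock genes, and 10.77 to 11.17 in the other mice. The mean of the cardiomyocyte markers was 9.77 and 10.43, that of the epithelial markers 15.38 and 15.51, and that of the smooth muscle markers 11.14 and 11.34. Lower in mouse 2 were the means of the eosinophil (9.92 and 9.49), T cell (9.68 and 9.30) and macrophage markers (11.85 and 11.68). Those of the B and plasma cell (12.67 and 12.65), endothelial (12.42 and 12.37) and red blood cell markers (14.54 and 14.46) were also lower there, by less. The part of sampling or of RNA quality in the difference between these mice was not tested.

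The profile averaged over the 10 genes, each first scaled over the 8 mice to mean 0 and SD 1, was 0.30 and 0.94 for NT, -0.27 and 0.14 for Ctrl-F, -0.18 and -0.0013 for Cap-F, and -1.40 and 0.48 for ODNcap-F. Hsph1 (r = 0.95) and Hspa8 (0.94) followed it most closely over the 8 mice, then Hsp90aa1 (0.83), Hspb1 (0.75), Hspa4l (0.74), Dnajb1 (0.70), Hspd1 (0.64), Hspa1a (0.61) and Hspa1b (0.56), and Hspe1 hardly at all (0.12). Each r includes the gene itself in the average and rests on 8 mice in 4 groups. Outside the chaperones, among 3488 genes whose group means span 2-fold or more, the profiles most like it were those of Usp13 (0.81), Gmnc (0.79), Rtp3 (0.79), Catsper4 (0.77) and P4ha1 (0.76). Usp13, a deubiquitinase, read 5.97 and 5.90 for NT, 5.06 and 5.40 for Ctrl-F, 4.61 and 5.0 for Cap-F, and 4.55 and 5.40 for ODNcap-F. P4ha1, the catalytic subunit of collagen prolyl hydroxylase, read 9.29 and 9.48 in NT, 8.31 to 8.63 in Ctrl-F and Cap-F, and 8.09 and 8.51 in ODNcap-F.

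The other genes of the chaperone network were tested with limma, to show whether the differences above reached them. Of 111 genes listed, 110 had a probe and 105 passed the filter, Dnajb5 having no probe and Dnajc6, Dnajc22, Hspb3, Hsf3 and Hsf5 being too dim. In Ctrl-F against NT, 4 rose and 8 fell past an adjusted p under 0.05 and a fold over 2, which is 11.4% beside 23.3% of the named genes tested the same way. In Cap-F 3 rose and 8 fell (10.5% beside 20.9%), and in ODNcap-F 3 rose and 7 fell (9.52% beside 21%). The median difference was -0.15, -0.14 and -0.13, near that of all probes. The local-pooled-error test called 12, 10 and 10 of them.

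The calls are few in each class, at most 3, and no difference between classes was tested. Over all genes, counted by any probe and not by the brightest as in the classes, 11.4% were called higher and 13.1% lower in Ctrl-F against NT. Of 10 chaperones of the endoplasmic reticulum, 3 rose in Ctrl-F and 2 each in Cap-F and ODNcap-F. Dnajb11, a J-domain partner of BiP, rose 2.52-fold for Ctrl-F, 2.54-fold for Cap-F and 2.55-fold for ODNcap-F (adjusted p 0.000148, 0.000172 and 0.000165, limma). It read 11.87 and 11.92 in NT and 13.11 to 13.38 over the 6 challenged mice. Hsp90b1, the HSP90 of this compartment, rose 2.24-fold, 2.37-fold and 2.31-fold (adjusted p 0.00131, 0.00118 and 0.00124), and without ODNcap-F mouse 2 it was 1.95-fold higher in ODNcap-F, under the fold limit. Hyou1, an HSP110-type chaperone of the same compartment, rose 2.01-fold in Ctrl-F, a call that ended without NT mouse 1 (1.90-fold), without Ctrl-F mouse 2 (1.85-fold), with scaling to the 75th percentile or with normexp, and was 1.77-fold and 1.99-fold higher in Cap-F and ODNcap-F, under the fold limit. Hspa5, the BiP chaperone itself, was 1.48-fold, 1.58-fold and 1.57-fold higher (adjusted p 0.0372, 0.0237 and 0.0242), also under the fold limit. As given above, 4 of 4 B and plasma cell markers and most eosinophil and macrophage markers were also called higher in each challenged group. The summed B and plasma cell level was 12.07 to 12.50 in NT and 16.55 to 16.71 in the challenged mice. The part of these cells was not tested.

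Small heat shock proteins went both ways. Cryab, the crystallin of muscle and lens that joins complexes with Hspb1, fell like Hspb1 in all 3 groups, by 2.55-fold for Ctrl-F, 2.87-fold for Cap-F and 2.24-fold for ODNcap-F (adjusted p 0.00019, 0.000151 and 0.000357), although with scaling to the 75th percentile the ODNcap-F change was 1.94-fold, under the fold limit. It was 14.17 to 14.19 in NT and 12.60 to 13.11 in the challenged mice, and unlike Hspb1 it was not nearest to NT in Cap-F. Hspb8, a partner of Bag3, fell by 2.08-fold, 2.24-fold and 2.12-fold, the first being 1.99-fold with normexp. Cryaa, the lens crystallin, rose 4.18-fold, 2.79-fold and 4.71-fold from a dim level of 4.31 and 4.35 in NT (adjusted p 5.16e-05, 0.000175 and 4.49e-05), and passed in none of the 3 groups with normexp background correction. The other 4 members of the class did not pass.

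In the HSP70 family, the atypical members Hspa12a and Hspa12b fell in all 3 groups. Hspa12b, known from endothelium, was 3.52-fold, 2.83-fold and 3.27-fold lower (adjusted p 0.0015, 0.00364 and 0.00204), and Hspa12a 3.43-fold, 2.94-fold and 2.71-fold lower. As given above, 2 of 3 endothelial markers also fell, and their part was not tested. Hspa1l, the testis HSP70, was at least 1.21-fold lower in Cap-F, where it was not well above background on either array. It had passed the filter only through the NT mice, and its call in Cap-F ended without either NT mouse, without Cap-F mouse 2, with normexp and with the local-pooled-error test, so nothing is read from it.

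Among J-domain proteins 0 of 33 rose, and 3 fell in Ctrl-F and 2 in each of the other challenged groups, drawn from Dnaja4, Dnajb2 and Dnajb4. Single mice ended the call of Dnajb4 in Ctrl-F (1.88-fold without Ctrl-F mouse 1), of Dnajb2 in Cap-F (1.98-fold without NT mouse 1, 1.94-fold without Cap-F mouse 1) and in ODNcap-F (1.94-fold without ODNcap-F mouse 1), and of Dnaja4 in ODNcap-F (1.75-fold without ODNcap-F mouse 1, and also without NT mouse 2, where it was just under the limit). None of 17 genes of HSP90 and its co-chaperones, of 11 exchange factors and regulators of HSP70 or of 15 chaperonin and prefoldin subunits passed the fold limit in any of these comparisons. Hsp90ab1, the constitutive HSP90, was 1.43-fold, 1.16-fold and 1.52-fold lower (adjusted p 0.017, 0.217 and 0.00996). Bag3, an exchange factor of HSP70 and a target of Hsf1, was 1.39-fold, 1.71-fold and 1.46-fold lower (adjusted p 0.0304, 0.00532 and 0.0194).

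Transcripts of the heat shock factors were also below NT. Hsf1 read 10.75 and 10.78 for NT, 10.16 and 10.22 for Ctrl-F, 10.35 and 10.45 for Cap-F, and 10.04 and 10.30 for ODNcap-F, which is 1.49-fold, 1.29-fold and 1.51-fold lower than NT (adjusted p 0.00372, 0.0234 and 0.00348), under the fold limit. Hsf2 was 1.14-fold, 1.24-fold and 1.23-fold lower, with an adjusted p of 0.135 in Ctrl-F. Hsf4, a factor known from lens, fell by 2.57-fold, 2.81-fold and 2.82-fold, and with normexp passed in ODNcap-F only (1.85-fold in Ctrl-F and 1.97-fold in Cap-F). The transcript of Hsf1 does not show the activity of its protein.

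**Figure D5:**
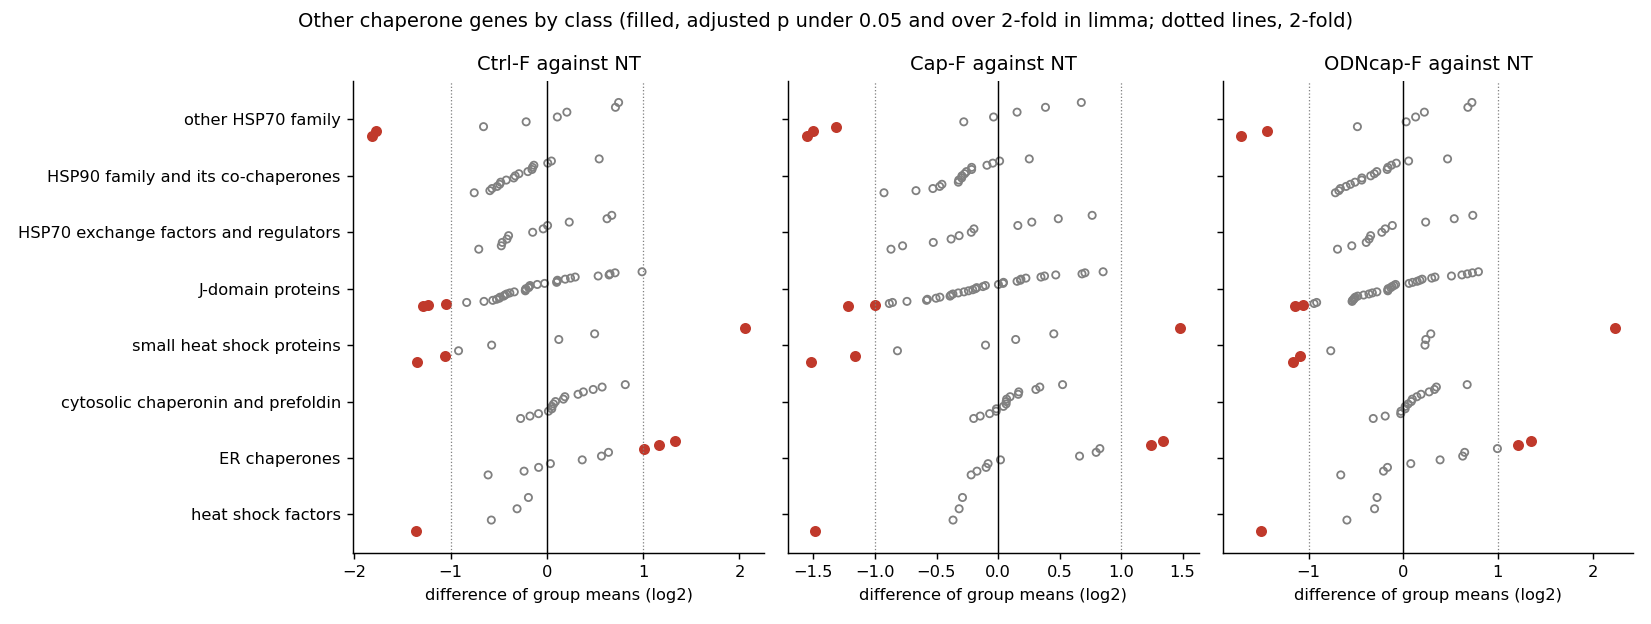
Differences from NT of 105 other chaperone genes by class (x axis, log2; 1 point per gene; filled, adjusted p under 0.05 and over 2-fold in limma). Filled points lie on both sides only in the small heat shock proteins, to the right in the chaperones of the endoplasmic reticulum and to the left in the HSP70 family, the J-domain proteins and the heat shock factors.

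Among the challenged groups, 0 of the 105 genes passed in limma in any of the 3 comparisons. The smallest adjusted p (limma) was 0.728 in ODNcap-F against Ctrl-F, 0.180 in ODNcap-F against Cap-F and 0.147 in Cap-F against Ctrl-F. At an unadjusted p under 0.05 with no fold limit, 2, 12 and 11 of the 105 genes passed. The share of all genes at that limit was not counted, so nothing is read from these counts. The local-pooled-error test called 0 in each. Between the 2 ODNcap-F mice, the other chaperones differed by a median of 0.06 beside 0.69 for the 10 genes. Of the 105, 65 were higher in mouse 2 and none was more than 2-fold higher there. The 10 genes were chosen with these values known, so the 2 medians are given as a description. The most apart were Ahsa2 (0.88), Dnaja1 (0.85), Chordc1 (0.81), Dnajb9 (0.68) and Stip1 (0.63), named after their values were seen. Ahsa2, Chordc1 and Stip1 are HSP90 co-chaperones, Dnaja1 is a cytosolic J-domain partner of HSP70, and Dnajb9 belongs to the endoplasmic reticulum.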

How the data were processed

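Lung RNA of 8 mice, 2 per group, was measured on single-color arrays, and groups and mouse numbers follow the titles in the labels. The authors deposited the Agilent Feature Extraction 11.0 output of each array, with background-subtracted intensity per spot and no normalization between arrays. The deposited table of log2 values for 32312 probes, quantile normalized by the authors, served as an alternative. Its values differed by at most 0.125 from those recomputed here when these 32312 probes alone were normalized. The levels given above were normalized over all probes.

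Control spots were left out, 792 spot values flagged as outliers were set to missing, and log2 intensities of 59305 spots were averaged per probe and quantile normalized. A probe was kept where both arrays of some group had it well above background. Names came from a RefSeq table, which matched 32994 probes (58.3%). A single model over the 4 groups was fitted with limma 3.58.1 in R 4.3.3, leaving 4 residual degrees of freedom, and p-values were adjusted by Benjamini-Hochberg over all kept probes. The study's local-pooled-error test was rebuilt with 100 intensity bins and run as an alternative. Both were tested on simulated data. With 1 mouse left out, its partner was taken to have the spread of the remaining groups.

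The 10 genes, the chaperone lists and the markers were chosen with earlier results of these data known. Named besides the 10 genes were Hsf1, Hsf2, Hsp90ab1, Hspa5, Bag3 and Cryab, those called with the largest fold in each direction (up to 4 against NT, up to 2 among the challenged groups), and the 5 genes most like the averaged profile. The labels do not say whether the mice of a group came from the same experiment or cage. The limma p-values rest on the spread between the 2 mice within each group, pooled over the 4 groups and drawn toward that of other probes. The number of arrays limits the precision.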

Additional observations from a re-analysis of the deposited data

How the results depend on the processing

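Where limma called a gene of the 10 with no mouse left out and no setting changed, its difference kept its sign under every alternative. Other differences could change sign with the mouse left out. In ODNcap-F against NT, Hspa1a was at -1.51 without ODNcap-F mouse 2 and at 0.44 without mouse 1. Hspa1b went from -1.43 to 0.62 and Hsph1 from -1.24 to 0.15 in the same way. Of 780 single differences recomputed for the 10 genes, 67 moved by more than 1 SD. The median difference of the 10 genes from NT in Ctrl-F, -0.16, became 0.025 with scaling to the 75th percentile, and that in ODNcap-F, -0.51, became -0.33; the cause was not tested. With single mice left out, the ODNcap-F median ran from -1.10 (without mouse 2) to -0.0089 (without mouse 1) against NT, from -0.44 to 0.27 against Ctrl-F and from -0.34 to 0.080 against Cap-F. The median in Cap-F against Ctrl-F, 0.07, became -0.03 with scaling to the 75th percentile.

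Without a fold limit, 61 of the 105 other chaperones were called against NT for Ctrl-F, 56 for Cap-F and 63 for ODNcap-F, by the brightest probe. Of all 28992 genes, counted when any probe passed, 18711, 17139 and 18148 were called in the same order of groups. With normexp background correction, 7 of the 105 passed in Ctrl-F and 7 in Cap-F, and in ODNcap-F every call but that of Cryaa remained. Of all 28992 genes, 3677, 3155 and 3262 passed. With any single mouse left out, 10 of the 12 chaperone calls of Ctrl-F, 9 of 11 of Cap-F and 7 of 10 of ODNcap-F remained, while all genes called ran from 5646 to 7155.

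Among the challenged groups, the local-pooled-error test called 149 of all 28992 genes in Cap-F against Ctrl-F, 112 in ODNcap-F against Cap-F and 134 in ODNcap-F against Ctrl-F. Without the filter these were 10, 10 and 9 in limma. The deposited table gave 0 in the comparisons of Cap-F with Ctrl-F and with ODNcap-F, and normexp gave 2 in ODNcap-F against Cap-F. Leaving out single mice gave 1 to 7, 1 to 8 and 0 to 5.

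The labels do not say whether same-numbered mice of different groups are linked. Over all probes kept, deviations of same-numbered mice correlated at -0.01 to 0.16. With the replicate number as a block, 7056, 6081 and 6435 of all genes and 12, 11 and 10 other chaperones were called against NT in the same order of groups, and the block changed no call of the 10 genes. Dim probes near background, such as those of Cryaa and Hspa1l, are the least certain.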

Other observations

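The 12 immediate early genes, transcription factors and other early responders to stimuli, did not move one way. In each challenged group against NT, 2 rose and 2 fell in limma, with median differences of -0.19, -0.27 and -0.06. None of the 12 passed among the challenged groups.

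Gmnc, a regulator of multiciliated cells, was among the genes whose profile was most like the average of the 10 heat shock genes. It read 6.26 and 6.36 for NT, 4.72 and 4.94 for Ctrl-F, 4.81 and 5.15 for Cap-F, and 4.63 and 6.03 for ODNcap-F. ODNcap-F mouse 2 was above the other challenged mice and ODNcap-F mouse 1 was the lowest of the 8.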
